A study of Mus musculus with 8 samples.

Results

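The 10 genes Glul, Axin2, Lgr5, Tbx3, Rnf43, Znrf3, Nkd1, Lect2, Rhbg and Slc1a2 were followed in regenerating mouse liver. They were chosen as known targets of Wnt signalling in pericentral hepatocytes, and every probe whose RefSeq transcript belongs to one of them was taken. This gave 15 probes for 10 of the 18316 genes named on the array. Each probe had 1 spot, and all 15 were well above background on all 8 arrays, so no array was dim for any of them. 7 of the genes were read by 1 probe, Glul and Nkd1 by 2 each, and Slc1a2 by 4.

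Total RNA from liver was measured on 8 one-colour Agilent arrays, 1 for each genotype and time. The groups were Mxcre+ liver, in which the series design gives Survivin (Birc5) as deleted, and Mxcre- liver, given as wild type, each at 0, 24, 36 and 48 h after partial hepatectomy. In this operation some liver lobes are cut out, and hepatocytes of the remaining lobes then divide. All animals, Mxcre- included, were of strain 129/SV/B6 and had received irradiation with a bone marrow transplant 2 months earlier and poly(IC) 1 week earlier. Poly(IC) switches on Mxcre, a Cre recombinase driven by an interferon-responsive promoter that is active in liver and blood cells among others. The deletion therefore need not be limited to hepatocytes, and which other cells carried it was not examined. The labels give the sex only as male or female and do not state if the RNA of an array came from 1 animal or several. The comparison asks how liver genes behave after hepatectomy with and without Survivin, and the members here are read for how a set of zonated genes behaved in it.

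Liver lobules are zoned. Endothelial cells of the central vein release Wnt ligands and R-spondin, which stabilise β-catenin in the neighbouring hepatocytes and, through Tcf factors, maintain a pericentral programme that includes glutamine synthesis from ammonia. Hepatocytes near the portal tract carry the urea cycle and gluconeogenesis instead. Several members are feedback genes that Wnt signalling induces in many tissues, and others are enzymes or transporters of the pericentral zone.

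Levels below are log2 intensity minus its 75th percentile on that array (log2 level), so a level of a probe can be set against the same probe on another array and not against another probe. Errors are standard errors (SE) from limma, which also gave the p values, adjusted by Benjamini-Hochberg over the 14142 genes tested. With 1 array per genotype and time, these p values measure how alike the genotypes, or how steady over the times, a difference was, and not a spread between replicate livers. The 0 and 24 h arrays lay on 1 slide and the 36 and 48 h arrays on another, so for 36 or 48 h against 0 or 24 h time and slide cannot be told apart.

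Birc5 was lower in Mxcre+ liver at each time, with log2 levels of -2.80, -3.49, -1.58 and -1.20 in Mxcre+ liver at 0, 24, 36 and 48 h, against -0.25, -0.55, 1.53 and 5.03 in Mxcre- liver. The arrays carried hepatocyte RNA: 9 of 10 listed hepatocyte markers were measured, and their mean log2 level was 7.29 to 7.60 on Mxcre+ and 7.46 to 7.57 on Mxcre- arrays. The 14 endothelial markers averaged 0.16 to 0.66 on Mxcre+ and 0.32 to 0.54 on Mxcre- arrays. Neutrophil markers (9 measured) ran differently in the genotypes, at -2.71, -1.60, 0.29 and 0.83 in Mxcre+ liver and 0.19, -0.67, -1.23 and -1.35 in Mxcre- liver. The mean of 4 Y-linked genes was between -6.63 and -6.09 on the Mxcre+ arrays of 0, 36 and 48 h and -1.37 on that of 24 h, and on Mxcre- arrays -6.39 at 0 h and -1.56 to -0.76 at the later times. Y-linked signal thus differed within the 36 h and 48 h genotype pairs, and between 0 h and the later arrays that had it. Both 0 h arrays were without it and both 24 h arrays had it. For 24 h against 0 h, time and what made Y-linked signal differ therefore cannot be told apart. The part of the neutrophil and Y-linked differences in the results below was not tested. In whole liver RNA, fewer cells of a type and less RNA per cell cannot be told apart.

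Promoter windows (250 bases before to 50 after a RefSeq start site, build GRCm38.p6) were given for 6 members, in 7 windows since Rnf43 had 2. They were searched on both strands for the core letters that Tcf and Lef factors bind, spelled CTTTGAA and CTTTGAT or else CTTTGTA and CTTTGTT. A match lay in the windows of 2 of the 6 members, Lect2 and Slc1a2, while 18.9% of all 27025 genes with a window and 16.9% of all 32851 windows hold at least 1. The 250 bases before both start sites are printed because Lect2 and Slc1a2 were the members with a match, and not for how their levels behaved. Sequences are RefSeq's, 5′ to 3′ along the gene, and capitals mark the match, which on both reads ATCAAAG, the reverse complement of CTTTGAT. The Lect2 stretch is chr13:56548539-56548788 on the minus strand, with the match at bases -32 to -26 before the start site. The Slc1a2 stretch is chr2:102706188-102706437 on the plus strand, with the match at -207 to -201. Both start sites lie inside the annotated span of their gene, that of Lect2 close to its end at 56548559. A match is a description of the letters and not of binding.
Lect2 promoter: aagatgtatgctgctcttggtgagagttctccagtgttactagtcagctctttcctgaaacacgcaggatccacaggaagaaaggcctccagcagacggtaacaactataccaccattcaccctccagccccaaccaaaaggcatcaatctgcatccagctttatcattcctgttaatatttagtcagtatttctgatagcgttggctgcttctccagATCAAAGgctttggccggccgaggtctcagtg
Slc1a2 promoter: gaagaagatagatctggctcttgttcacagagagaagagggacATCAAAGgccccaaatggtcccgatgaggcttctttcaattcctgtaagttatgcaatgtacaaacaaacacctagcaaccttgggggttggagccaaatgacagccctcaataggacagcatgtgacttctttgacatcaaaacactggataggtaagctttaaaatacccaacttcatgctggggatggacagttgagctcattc

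Among the ammonia, glutamate and glutamine genes, Rhbg fell after hepatectomy, and Glul and Slc1a2 were lower at every later time in both genotypes without passing the test in the gene-level fit. Rhbg (chromosome 3, 88242874 to 88254739), an ammonia channel of the pericentral hepatocyte membrane, had log2 levels of 4.42, 2.40, 1.88 and 1.67 in Mxcre+ liver at 0, 24, 36 and 48 h, against 3.83, 2.47, 2.71 and 2.29 in Mxcre- liver. Both 0 h arrays lay above all 6 later arrays. The change from 0 h, averaged over the genotypes, was -1.69 ± 0.37 (log2, SE) at 24 h with an adjusted p of 0.0557. Rhbg fell by 1.83 ± 0.37 on the log2 scale at 36 h (3.55-fold, limma adjusted p = 0.0393) and by 2.14 ± 0.37 at 48 h (4.42-fold, adjusted p = 0.0260). The lowest array was that of 48 h in both genotypes.

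Glul (chromosome 1, 153899929 to 153909723) encodes glutamine synthetase, which in liver is made by the hepatocytes next to the central vein. Its brighter probe read 5.61, 4.71, 5.03 and 3.40 in Mxcre+ liver and 6.09, 4.07, 4.94 and 4.75 in Mxcre- liver. The levels were lowest at 48 h in Mxcre+ and at 24 h in Mxcre- liver, and on both the 36 h array stood above the 24 h array. The second probe gave 1.54, 0.01, 1.16 and -0.43 in Mxcre+ liver and 1.14, -0.42, 0.93 and -0.10 in Mxcre- liver, the same dip at 24 h, return at 36 h and second dip at 48 h in both genotypes. The fitted change of the brighter probe was -1.46 ± 0.48 at 24 h (limma adjusted p = 0.123), -0.86 ± 0.48 at 36 h (adjusted p = 0.248) and -1.77 ± 0.48 at 48 h (adjusted p = 0.0667). When every probe was fitted separately, the second probe fell by 1.55 ± 0.22 at 24 h (limma adjusted p = 0.0285) and by 1.61 ± 0.22 at 48 h (adjusted p = 0.0181), and at 36 h its change was -0.30 ± 0.22. The call for Glul at 24 and 48 h thus depended on the probe, and over the 8 arrays the probes correlated at r = 0.847.

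Slc1a2 (chromosome 2, 102658239 to 102790784) encodes a glutamate transporter that brings glutamate into pericentral hepatocytes. Its brightest probe read 2.28, 1.21, 1.06 and -0.04 in Mxcre+ liver, against 2.17, 0.81, 1.54 and 1.22 in Mxcre- liver. The Mxcre+ 48 h array was the lowest of the 8 on each of the 4 probes, and both 0 h arrays were the highest on each. The other 3 probes read -1.90, -2.29 and -3.63 on the Mxcre+ 48 h array, against -0.22, -0.97 and -2.40 on the Mxcre- 48 h array. Averaged over genotypes, the change of the brightest probe was -1.22 ± 0.42 at 24 h (limma adjusted p = 0.133), -0.92 ± 0.42 at 36 h (adjusted p = 0.178) and -1.63 ± 0.42 at 48 h (adjusted p = 0.0590). Fitted separately, 2 of the 4 probes fell at 48 h, by 2.14 ± 0.49 (limma adjusted p = 0.0466) and 1.66 ± 0.37 (adjusted p = 0.0444). The lowest correlation between any pair of its probes over the 8 arrays was 0.966.

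**Figure D1:**
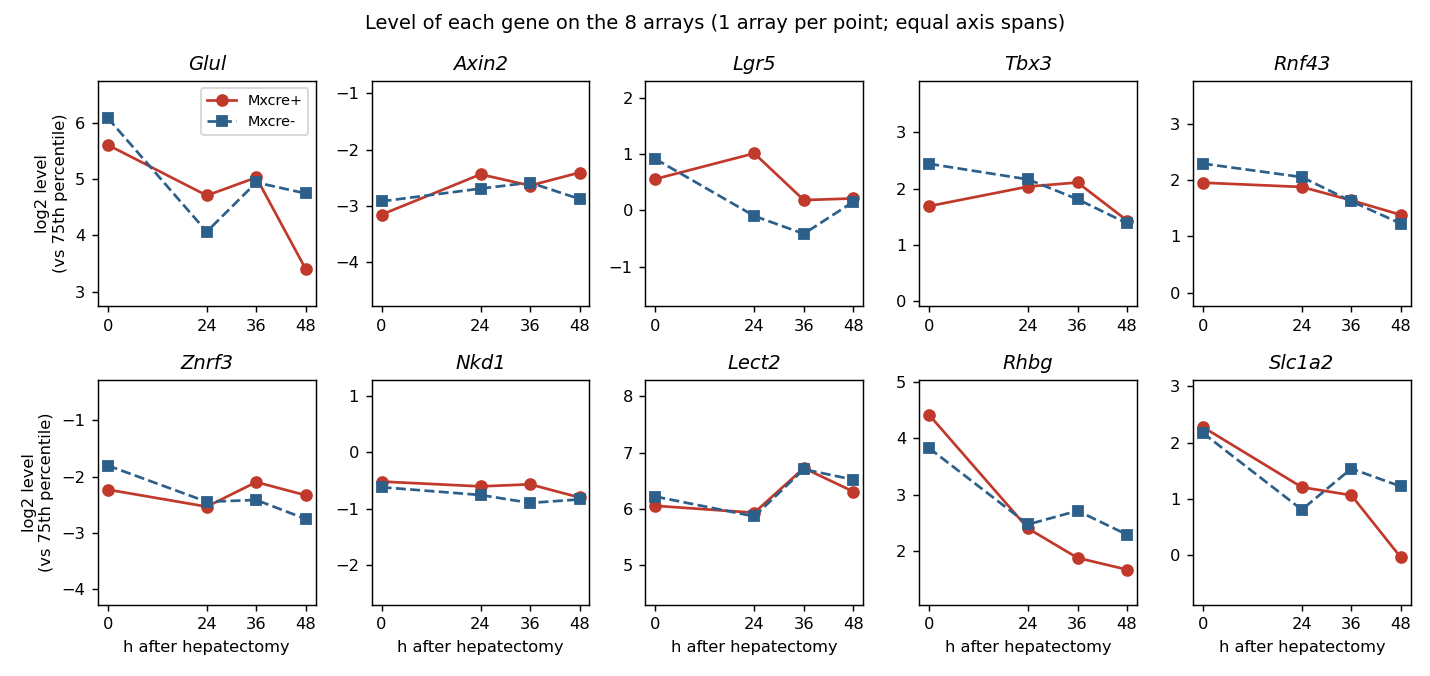
Log2 level (75th percentile of each array at 0) of the 10 genes against hours after hepatectomy, 1 array per point, Mxcre+ as circles and Mxcre- as squares, with equal spans on all vertical axes. Glul, Rhbg and Slc1a2 span 2.69, 2.75 and 2.32 log2 units over the 8 arrays, and Nkd1 spans 0.38.

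Of the Wnt feedback genes and regulators, Rnf43 was called lower at 48 h, and Nkd1 was called lower on one of its probes. Axin2 (chromosome 11, 108917828 to 108950783), a scaffold of the complex that degrades β-catenin and a widely used readout of Wnt signalling, read -3.16, -2.44, -2.64 and -2.41 in Mxcre+ liver and -2.92, -2.69, -2.59 and -2.88 in Mxcre- liver. Both 0 h arrays lay below all later ones, but in Mxcre- liver the 48 h array stood only just above 0 h. The changes from 0 h were 0.47, 0.42 and 0.39, each ± 0.20, and did not pass (limma adjusted p = 0.199, 0.196 and 0.229). The direction of these Axin2 changes turned with one background correction, to -0.12, -0.52 and -0.65.

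Rnf43 and Znrf3 are membrane ubiquitin ligases that remove Wnt receptors from the cell surface. Rnf43 (chromosome 11, 87663087 to 87735539) read 1.95, 1.88, 1.64 and 1.38 in Mxcre+ liver and 2.29, 2.05, 1.62 and 1.23 in Mxcre- liver. Its level was lower at each successive time in both genotypes. The change was -0.16 ± 0.16 at 24 h and -0.49 ± 0.16 at 36 h (limma adjusted p = 0.0981), and at 48 h Rnf43 fell by 0.82 ± 0.16 (1.76-fold, adjusted p = 0.0344). Znrf3 (chromosome 11, 5276329 to 5444847) read -2.23, -2.53, -2.10 and -2.33 in Mxcre+ liver, against -1.80, -2.45, -2.42 and -2.75 in Mxcre- liver. Its changes of -0.47, -0.24 and -0.53, each ± 0.24, did not pass, and the Mxcre+ 36 h array stood above the Mxcre+ 0 h array.

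Lgr5 (chromosome 10, 115450314 to 115587780), a receptor for R-spondins, read 0.56, 1.01, 0.18 and 0.21 in Mxcre+ liver and 0.91, -0.10, -0.42 and 0.15 in Mxcre- liver. The genotypes ran opposite ways at 24 h, where the Mxcre+ array was the highest of the 8 and the Mxcre- array was below its own 0 h value. The change was -0.28 ± 0.37 at 24 h, -0.85 ± 0.37 at 36 h and -0.55 ± 0.37 at 48 h, with limma adjusted p of 0.658, 0.164 and 0.330. Tbx3 (chromosome 5, 119670534 to 119684724), a transcription factor, read 1.69, 2.04, 2.11 and 1.43 in Mxcre+ liver and 2.44, 2.16, 1.81 and 1.38 in Mxcre- liver. Tbx3 was lower at each successive time in Mxcre- liver, and in Mxcre+ liver it was highest at 36 h. Its change at 48 h was -0.66 ± 0.27 (limma adjusted p = 0.153).

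Nkd1 (chromosome 8, 88521342 to 88594887), an inhibitor that binds Dishevelled, gave readings that differed by probe. The brighter probe lay between -0.80 and -0.52 in Mxcre+ and between -0.90 and -0.62 in Mxcre- liver, and only 8.10% of the genes tested had a narrower range. The second probe read -1.47, -2.13, -2.34 and -2.49 in Mxcre+ liver and -1.74, -2.50, -2.45 and -2.56 in Mxcre- liver. Both 0 h arrays stood above all later arrays on that probe. Fitted separately, it fell by 0.71, 0.79 and 0.91, each ± 0.14, at 24, 36 and 48 h (limma adjusted p = 0.0438, 0.0321 and 0.0208), while the changes of the brighter probe, -0.11, -0.16 and -0.25, each ± 0.13, did not pass. The probes correlated at r = 0.768 over the 8 arrays, and which part of the transcript each reads was not examined.

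Lect2 (chromosome 13, 56529734 to 56548559), a protein that hepatocytes secrete, was the only member called higher in the gene-level fit, and this at 36 h alone. It read 6.05, 5.93, 6.72 and 6.31 in Mxcre+ liver and 6.22, 5.87, 6.70 and 6.52 in Mxcre- liver. Both 24 h arrays lay just below both 0 h arrays, and both 36 h arrays were the highest of their genotype. Lect2 rose by 0.58 ± 0.13 at 36 h (1.49-fold, limma adjusted p = 0.0481), and its change was -0.24 ± 0.13 at 24 h and 0.28 ± 0.13 at 48 h. The 36 h call passed in 4 of 15 alternatives and was lost whichever array was left out.

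**Figure D2:**
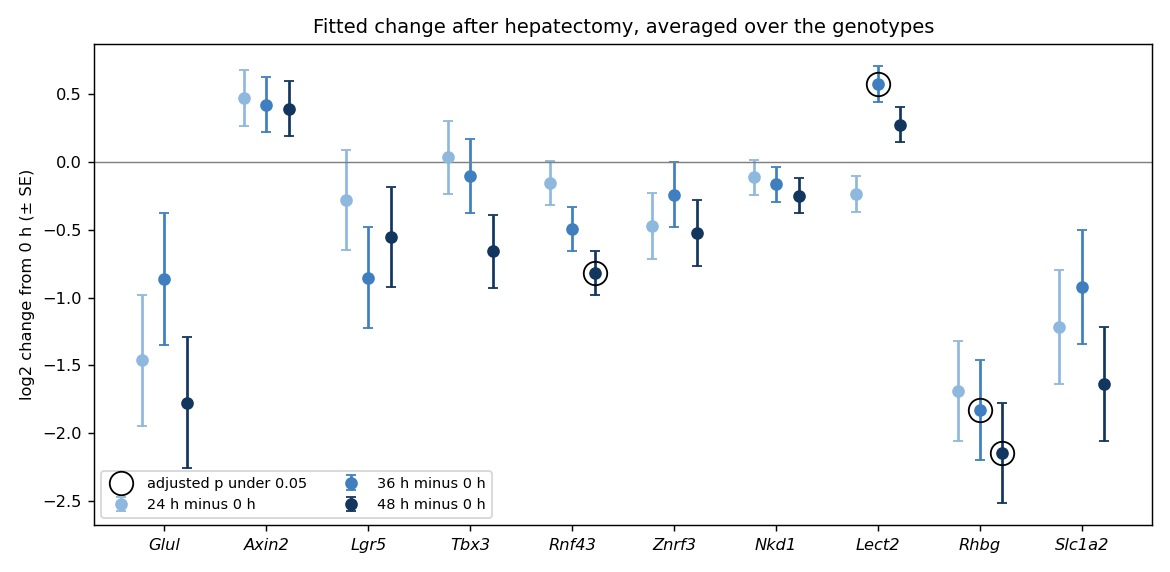
Fitted log2 change from 0 h of the gene-level probe of each gene at 24, 36 and 48 h, averaged over Mxcre+ and Mxcre- liver, with SE bars from the limma fit; rings mark an adjusted p under 0.05. 4 changes carry a ring: Rnf43 at 48 h, Lect2 at 36 h and Rhbg at 36 and 48 h.

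Counted over the gene-level fit, 0 of 10 members were called at 24 h against 0 h, where 9.69% of all genes tested were called (4.43% higher and 5.26% lower) and 3 members had an unadjusted p under 0.05. At 36 h, 1 member rose and 1 fell (Lect2 and Rhbg), against 7.83% of genes called higher and 8.64% called lower. At 48 h, 2 fell (Rhbg and Rnf43), against 9.6% of genes called lower and 8.12% called higher. With counts this small, the share of members called was near that of all genes. The median change of the members was -0.26, -0.37 and -0.61 at 24, 36 and 48 h, beside -0.03, -0.06 and -0.08 over all genes tested. At each of these times 8 of 10 members had a negative change, beside 7431, 7657 and 7813 of all 14142 genes tested. Without any 1 of the 8 arrays, 0 members were called at 36 h, and at 48 h 0 or 1. With a normexp background correction 0 were called at either time.

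Counted by arrays, both 24 h arrays lay below both 0 h arrays for 5 members (34.8% of all genes) and above them for 1 (30.4%). At 36 h 5 lay below (37.7% of genes) and 2 above (30.6%). At 48 h 8 of 10 lay below, against 37.6% of genes, and the other 2, Axin2 and Lect2, above, against 27.9%. Arrays of all 3 later times lay below 0 h for Glul, Rhbg and Slc1a2 (22.4% of genes) and above it for Axin2 (18.1%).

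Between successive times, 0 members were called for 36 h against 24 h (0.212% of genes called) and 0 for 48 h against 36 h (0.106%). By limma, 1 member had an unadjusted p under 0.05 in the first, Lect2, with 0.81 ± 0.13 and an adjusted p of 0.133, and 0 had one in the second. From 36 to 48 h, which lie on the same slide, the change was negative for 9 of 10 members with a median of -0.31. Over all genes tested it was negative for 7403 of 14142, with a median of -0.02. The fall was not particular to the members. Of 22 other pericentral hepatocyte genes tested, treated further below, 20 had a negative change, with a median of -0.53.

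The comparison of Mxcre+ with Mxcre- liver found 0 members called on average over the 4 times, and 0% of genes were called. By limma at an unadjusted p under 0.05 there were 931 genes of 14142 and 0 members. The fitted differences (Mxcre+ minus Mxcre-) were -0.27 ± 0.34 for Glul, -0.31 ± 0.30 for Slc1a2, -0.23 ± 0.26 for Rhbg, 0.35 ± 0.26 for Lgr5, 0.15 ± 0.09 for Nkd1 and 0.11 ± 0.14 for Axin2. Those of Tbx3, Rnf43, Znrf3 and Lect2 lay between -0.13 and 0.06. The median over the members was -0.08, beside -0.02 over all genes.

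Within single times, where 1 array stood against 1 array and no test was possible, differences of 2-fold or more were seen for 1 member at 24 h and for 2 at 48 h. At 24 h Lgr5 was 2.16-fold higher in Mxcre+ liver, and 0.793% of the genes measured there were 2-fold or more higher. With normexp the Lgr5 difference was 0.63 on the log2 scale, under 2-fold. At 48 h Glul was 2.54-fold and Slc1a2 2.40-fold lower in Mxcre+ liver by their gene-level probes, and 3.16% of genes were 2-fold or more lower. The Slc1a2 difference was of like size on its other 3 probes, at 3.20-fold, 2.50-fold and 2.34-fold lower. For Glul the second probe was 1.26-fold lower, so the size of that difference depended on the probe. On the pairs of 0 h and of 36 h no member differed by 2-fold on its gene-level probe, where 3.75% and 4.55% of genes did. With normexp 2 members were 2-fold apart at 36 h, Axin2 at 1.05 and Rhbg at -1.21 (log2, Mxcre+ minus Mxcre-). No share of all genes was computed with normexp, so this count cannot be placed against it. Relative to the main values, normexp moved bright probes by a median of -0.77 on the Mxcre+ and -0.20 on the Mxcre- 36 h array. On the 48 h pair the hepatocyte markers averaged 7.29 in Mxcre+ and 7.46 in Mxcre- liver, and 7 of 9 were lower in Mxcre+ liver, with a median difference of -0.17. On the same pair the neutrophil markers had a median difference of 2.27, with 8 of 8 higher in Mxcre+ liver. Y-linked signal differed within this pair too, with a mean of -6.63 in Mxcre+ and -0.76 in Mxcre- liver. The part of each of these in the 48 h differences was not tested.

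Rhbg and Slc1a2 crossed between the times. Rhbg was 0.59 higher in Mxcre+ liver at 0 h (log2), 0.07 lower at 24 h, 0.84 lower at 36 h and 0.62 lower at 48 h. Slc1a2 differences were 0.10, 0.40, -0.47 and -1.26, and all 4 of its probes were positive at 0 and 24 h and negative at 36 and 48 h. Znrf3, Tbx3 and Rnf43 ran the other way, negative at 0 and 24 h (Tbx3 -0.75 and -0.13, Znrf3 -0.43 and -0.09, Rnf43 -0.34 and -0.18) and positive at 36 and 48 h (Tbx3 0.30 and 0.05, Znrf3 0.32 and 0.42, Rnf43 0.02 and 0.16). With normexp the later differences of Tbx3 (-0.23 and -0.14) and Rnf43 (-0.36 and -0.05) were negative, and that of Znrf3 at 24 h was positive at 0.17. At 36 and 48 h normexp moved bright probes by a median of -0.77 and -0.53 on Mxcre+ and -0.20 and -0.23 on Mxcre- arrays. The part of this shift in the turned differences was not tested. The 10 macrophage markers measured had median differences of -0.72, -0.49, 0.92 and 0.29 at 0, 24, 36 and 48 h, with 0, 0, 10 and 8 of them higher in Mxcre+ liver. Their part in the differences of Znrf3, Tbx3 and Rnf43 was not tested. Mean Y-linked levels were close within the pairs of 0 and 24 h. They were -6.47 in Mxcre+ and -1.56 in Mxcre- liver at 36 h, and -6.63 and -0.76 at 48 h. The pairs of 36 and 48 h also lay on the other slide. For all these crossings, genotype cannot be told apart there from whatever made Y-linked signal differ. The test of whether the difference after hepatectomy was other than at 0 h called 0 members (0.17% of genes called). By limma at an unadjusted p under 0.05 it gave 2 members, Tbx3 at 0.82 ± 0.26 (adjusted p = 0.703) and Rhbg at -1.10 ± 0.38 (adjusted p = 0.740). That test rests on 1 pair of arrays at 0 h.

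**Figure D3:**
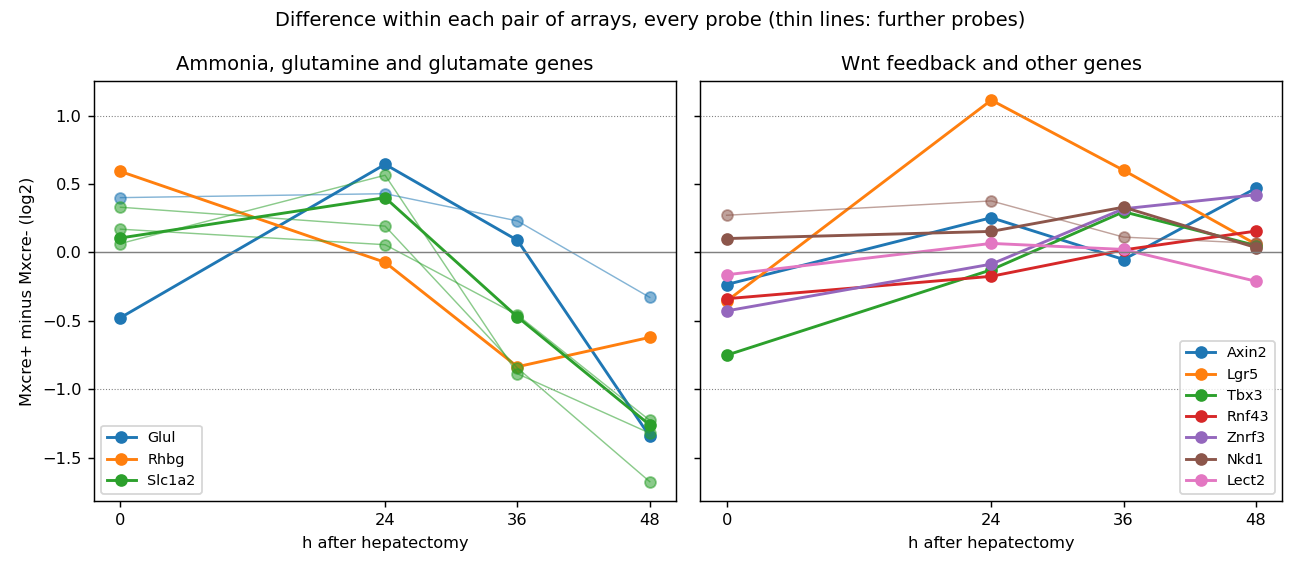
Log2 difference of Mxcre+ minus Mxcre- liver within each pair of arrays against hours after hepatectomy, with thick lines for the gene-level probe, thin lines for further probes and dotted lines at a 2-fold difference. The left panel shows Glul, Rhbg and Slc1a2, with all 4 Slc1a2 probes below -1 at 48 h, and the right panel shows the other 7 genes, where Lgr5 at 24 h reaches 1.11.

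Over the 8 arrays, 31 of 45 pairs of members correlated positively, with a median r of 0.39. The closest were Glul and Slc1a2 (r = 0.95), Rhbg and Slc1a2 (0.89), Tbx3 and Rnf43 (0.85) and Glul and Rhbg (0.78). Axin2 correlated negatively with Rhbg (-0.82), Slc1a2 (-0.78) and Glul (-0.70). These are descriptions over 8 arrays that share their times, slides and scaling. No like share or median was computed for pairs of other genes, so these values cannot be placed against them. Among 2188 genes above background on all arrays with an SD of at least 0.5, the genes most like Glul were Cyp2c40 (r = 0.99), Slco1b2, Slc1a2, Ces1f and Igfals (r = 0.94 to 0.95). Those most like Axin2 were Sgk2, Hes1, Id2, Il12rb1 and Tm4sf4 (r = 0.91 to 0.94).

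Among other genes of the pathway and of the lobule, counts of called genes are to be read against the share over all genes tested, which was 4.43%, 7.83% and 8.12% called higher and 5.26%, 8.64% and 9.6% called lower at 24, 36 and 48 h. The calls of the pathway, zonation and glutamine lists numbered 22, 30 and 34 at these times. Leaving out 1 of the 8 arrays left 0 to 15, 0 to 13 and 1 to 25 of them called. Over all genes tested the calls fell as well, from 1370, 2329 and 2507 to 0 to 519, 0 to 931 and 84 to 1512. Fewer arrays also leave fewer degrees of freedom, so this loss was not particular to these lists. At 24 h 0 of the 22 were still called without the Mxcre+ 0 h array or without either 24 h array. At 36 h 0 of the 30 were called without either 36 h array, and at 48 h 1 of the 34 without the Mxcre- 48 h array and 2 without the Mxcre+ 0 h array. With normexp 1, 0 and 2 were called. Leaving out an array turned no direction among them, and normexp turned that of Dkk3.

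Of 23 Wnt ligands and R-spondins, 12 were measured above background on enough arrays to be tested, and 1, Wnt2, was called higher at each later time, a share near that of all genes at 36 and 48 h. No ligand was called lower. Wnt2, which liver endothelial cells make, read -0.51, 1.03, 0.74 and 1.41 in Mxcre+ liver and -0.39, 1.09, 1.08 and 0.67 in Mxcre- liver. Both 0 h arrays lay below all later ones, and Wnt2 rose by 1.51 ± 0.29 at 24 h (limma adjusted p = 0.0424), 1.37 ± 0.29 at 36 h (adjusted p = 0.0416) and 1.49 ± 0.29 at 48 h (adjusted p = 0.0322). Wnt2 passed in 7, 7 and 6 of 15 alternatives at these times. Wnt9b, the other ligand known from central vein endothelium, read -2.26, -0.56, -1.06 and -0.03 in Mxcre+ liver and -1.97, -0.71, 0.08 and -0.74 in Mxcre- liver. Its changes of 1.48, 1.62 and 1.73, each ± 0.45, did not pass (limma adjusted p = 0.102, 0.0689 and 0.0588). Rspo3, the R-spondin of the central vein, read -3.76, -2.85, -2.96 and -2.90 in Mxcre+ liver and -3.59, -3.01, -3.10 and -3.56 in Mxcre- liver, and did not pass at any time. The 14 endothelial markers, listed as another reading of these cells, held 2 genes called lower at each time, while 2 were called higher at 24 and 48 h and 3 at 36 h. Wnt9b, Rspo3 and, below, Ctnnb1 were outside the rule for naming genes in these comparisons and were chosen after their values were seen, as were Cyp2e1 and Oat in the plot of pathway and zonated genes.

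Of 19 receptors and secretion factors, 12 were tested. The numbers called lower were 1, 1 and 2 at 24, 36 and 48 h (5.26%, 8.64% and 9.6% of all genes). At each time 0 were called higher (4.43%, 7.83% and 8.12% of all genes). With counts this small, both are near the share of all genes. Fzd4, a Frizzled receptor, fell by 0.91 ± 0.13 at 24 h, 0.69 ± 0.13 at 36 h and 0.70 ± 0.13 at 48 h (limma adjusted p = 0.0281, 0.0346 and 0.0297). It read 2.26, 1.48, 1.71 and 1.68 in Mxcre+ liver, against 2.60, 1.57, 1.77 and 1.78 in Mxcre- liver. Fzd8 fell by 1.30 ± 0.16 at 48 h (limma adjusted p = 0.0146). Of 16 secreted or membrane inhibitors, 9 were tested, with 1, 0 and 1 called higher and 0, 1 and 1 called lower at 24, 36 and 48 h. These counts too are near the share of all genes. Dkk3 rose, except with normexp, at 24 h (0.76 ± 0.14, limma adjusted p = 0.0378) and at 48 h (0.70 ± 0.14, adjusted p = 0.0330). Sfrp5, which binds Wnt ligands, fell by 0.78 ± 0.14 at 36 h and 0.91 ± 0.14 at 48 h (limma adjusted p = 0.0328 and 0.0209). Its calls passed in 2 and 8 of 15 alternatives.

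Of 23 genes of the β-catenin destruction complex and Tcf factors, 20 were tested, and those called all fell, with 1 at 24 h, close to the share of all genes called lower there, 4 at 36 h and 5 at 48 h. Tle2, a co-repressor that Tcf factors recruit, fell by 1.11 ± 0.21, 1.47 ± 0.21 and 1.50 ± 0.21 at 24, 36 and 48 h (limma adjusted p = 0.0442, 0.0246 and 0.0187). Tcf7l2, the main Tcf factor of hepatocytes, fell by 0.87 ± 0.13 at 36 h and 0.80 ± 0.13 at 48 h (limma adjusted p = 0.0242 and 0.0218). The others were Dvl2 and Tle4 at 36 and 48 h and Axin1 at 48 h, the last passing in 2 of 15 alternatives. Ctnnb1, which encodes β-catenin, lay between 2.64 and 2.85 in Mxcre+ liver and between 2.47 and 2.75 in Mxcre- liver.

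Of 15 other Wnt targets, 11 were tested, and 2 rose at each time, Sox9 and Jun. Sox9 rose by 2.83 ± 0.36, 2.11 ± 0.36 and 2.40 ± 0.36 at 24, 36 and 48 h (limma adjusted p = 0.0244, 0.0306 and 0.0201). Sox9 also marks cholangiocytes, and of the 6 cholangiocyte markers tested, Sox9 included, 3 were called higher at each time; the part of those cells was not tested. Jun, an early response transcription factor, rose by 1.68 ± 0.16, 1.81 ± 0.16 and 1.66 ± 0.16.

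Calls were also made among other pericentral hepatocyte genes. Of 23 listed, 22 were tested, of which 5 were called lower at 24 h, 8 at 36 h and 8 at 48 h (5.26%, 8.64% and 9.6% of all genes). The numbers called higher were 0, 2 and 1 (4.43%, 7.83% and 8.12% of all genes), which is not above the share of all genes at 24 and 48 h and close to it at 36 h. Cyp1a2, a cytochrome P450 of the pericentral zone, read 4.42, 2.25, 2.31 and 2.00 in Mxcre+ liver and 4.43, 3.23, 3.20 and 1.79 in Mxcre- liver. It fell by 1.67 ± 0.35 at 36 h and 2.53 ± 0.35 at 48 h (limma adjusted p = 0.0425 and 0.0181). Cyp7a1, whose enzyme makes the first step from cholesterol towards bile acids, fell by 7.04 ± 0.55 at 24 h and 4.11 ± 0.55 at 36 h (limma adjusted p = 0.0179 and 0.0225), and was called lower at 48 h as well. Cyp2c37, Aldh1b1, Rgn and Pon1 were also called lower at 24 h. At 48 h the call of Cyp2c37 passed in 14 of 15 alternatives, and that of Cyp1a2 in 10. Gstm2, a glutathione transferase, rose by 1.34 ± 0.29 at 36 h and 1.26 ± 0.29 at 48 h (limma adjusted p = 0.0435 and 0.0454), and Lhpp rose by 1.06 ± 0.21 at 36 h (adjusted p = 0.0374). The 36 h calls of Cyp1a2 and Lhpp passed in 5 of 15 alternatives each. Those of Gstm2 passed in 7 at 36 h and in 5 at 48 h. The median changes of the 22 genes were -0.64, -0.09 and -0.46.

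Periportal genes were called as well. Of 20 listed, 18 were tested, with 1 called higher and 7 lower at 24 h and 0 and 8 at both 36 and 48 h, and median changes of -0.91, -0.73 and -0.78. Over all genes tested, 4.43%, 7.83% and 8.12% were called higher and 5.26%, 8.64% and 9.6% lower at 24, 36 and 48 h. Gls2, the liver glutaminase that opposes glutamine synthetase across the lobule, read 6.69, 4.84, 4.70 and 5.06 in Mxcre+ liver and 6.71, 4.73, 5.31 and 5.41 in Mxcre- liver. Gls2 fell by 1.91 ± 0.21, 1.69 ± 0.21 and 1.46 ± 0.21 at 24, 36 and 48 h (limma adjusted p = 0.0225, 0.0208 and 0.0189). Otc, an enzyme of the urea cycle, fell by 1.58 ± 0.15, 1.54 ± 0.15 and 1.94 ± 0.15. Pigr, Sds and Ass1 were also called lower at 24 h, and Sdsl was the gene called higher there. Falls after hepatectomy were thus called among genes of both zones, and the difference between the zones was not tested.

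Of 16 other genes of glutamine and ammonia handling, 14 were tested, of which 3 were called lower at 24 h, 3 at 36 h and 4 at 48 h (5.26%, 8.64% and 9.6% of all genes). The numbers called higher were 1, 1 and 2 (4.43%, 7.83% and 8.12% of all genes). Asns, which uses glutamine to make asparagine, rose by 3.33 ± 0.36, 2.10 ± 0.36 and 2.20 ± 0.36 (limma adjusted p = 0.0217, 0.0306 and 0.0233). Slc38a3, the main glutamine transporter of hepatocytes, fell by 1.47 ± 0.22 at 24 h and 1.39 ± 0.22 at 48 h (limma adjusted p = 0.0295 and 0.0218). At 36 h its change was -0.75 ± 0.22 and did not pass. Rhcg, an ammonia channel related to Rhbg, fell by 1.51 ± 0.24 at 36 h and 1.38 ± 0.24 at 48 h (limma adjusted p = 0.0268 and 0.0256). No gene of any of these lists was called between the genotypes, between successive times after hepatectomy, or for a changed genotype difference.

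**Figure D4:**
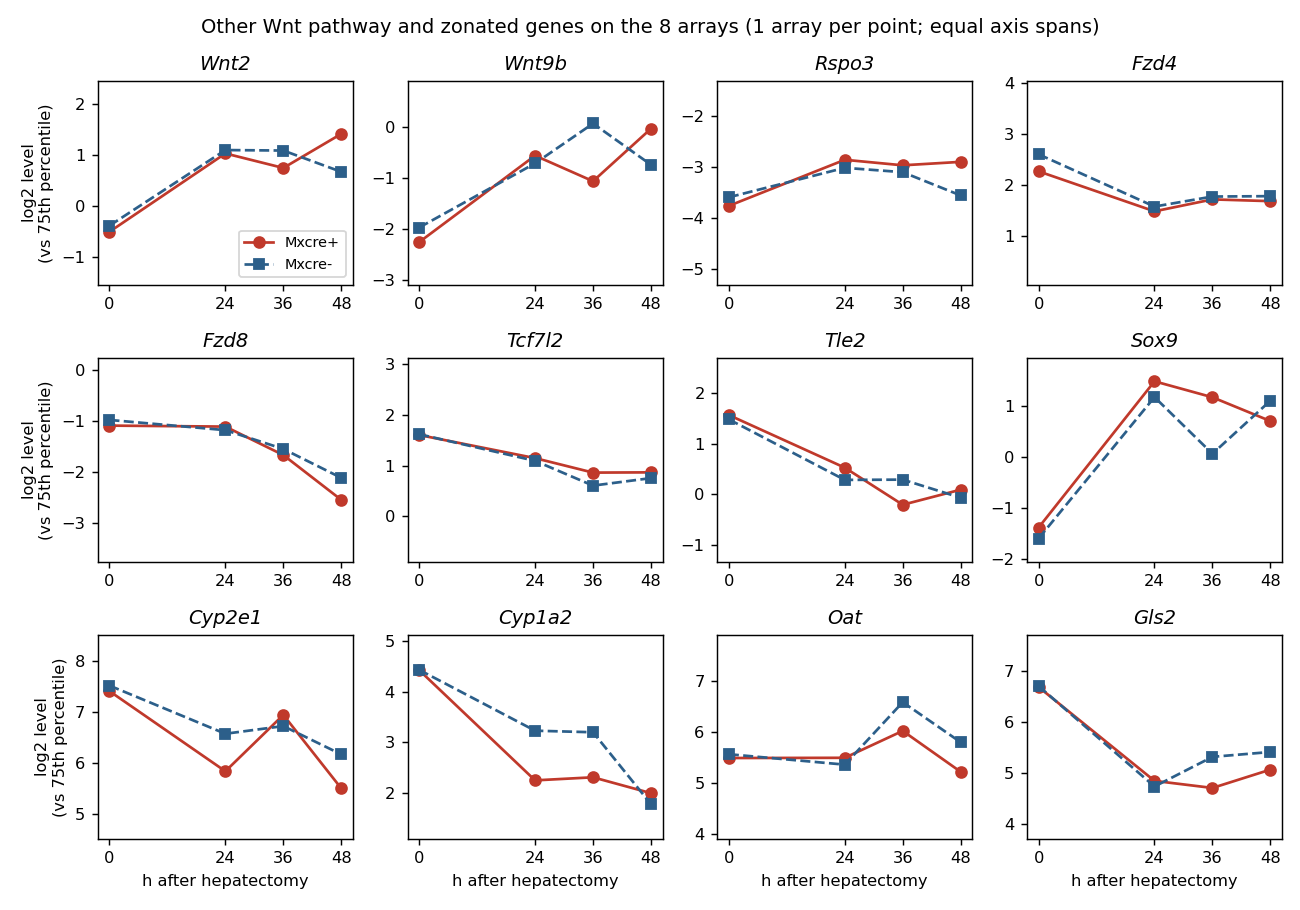
Log2 level of 12 genes outside the 10 members against hours after hepatectomy, 1 array per point, Mxcre+ as circles and Mxcre- as squares, with equal spans on all vertical axes. Wnt2 and Sox9 stand above their 0 h arrays at all later times in both genotypes, and Tle2, Cyp1a2 and Gls2 stand below theirs.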

How the data were processed

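The members and gene lists were chosen with earlier results of these data known. The authors deposited scanner files of 8 arrays, in which, per the file headers, Agilent Feature Extraction 10.7.3.1 (10.7 in the submitters' processing notes) gave a background-subtracted, detrended intensity for each of 43379 spots per array. The deposited matrix of log2 values was read as quantile-normalised log2 intensity, since all its columns had the median 5.51 and each matched its own array (lowest r 0.999); its scale is not stated in the labels, and it served as an alternative.

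Main values were log2 intensity minus the 75th percentile of the array over spots other than controls. Spots marked as outliers were left out, and 41056 of 41174 probes were kept. Of these, 26839 were named through the accession of the transcript in RefSeq. A gene was represented by its brightest probe on average, and the 14142 genes that Feature Extraction marked well above background on 2 or more arrays were tested. Between 60.2% and 66.0% of spots were well above background, and the number of arrays limits the precision.

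Tables were read by data.table (1.17.8) in R 4.3.3. Limma, version 3.58.1, fitted time and genotype (3 residual degrees of freedom), and genotype by after-hepatectomy (2 residual degrees of freedom), with calls made where the p adjusted by Benjamini-Hochberg was under 0.05. The fits were also run on simulated data with independent noise. Those data held no slide or cell mix differences, so that run cannot show that the calls hold here. Differences within a time are given by size, with 2-fold as the rule. Alternatives were quantile normalisation, the deposited table, normexp (offset 50) on the median signal because the files held no mean signal, other filters on dim genes, every probe fitted separately, an intensity trend, leaving out arrays or pairs, and each slide alone. Pathway genes were named from up to 5 called per list, comparison and direction with the largest change. Only a part of these genes is named in the text. Lrp5, Lrp6, Bcl9, Ccnd1, Cldn2, Pck1, Cps1 and Tf were not analysed here. Times are those of the titles; the labels' protocols also mention a later analysis, which was not used.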

Additional observations from a re-analysis of the deposited data

How the results depend on the processing

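The fit of time and genotype compares the genotypes within the 4 time pairs. No paired analysis was possible beyond that because each genotype and time had 1 array. For a change from 0 h, leaving out either array of a time outside the comparison gives the same estimate, so not all alternatives are separate checks. The 4 called changes kept their direction under all 15 alternatives run. Rhbg at 48 h passed in 9 of them, Rhbg at 36 h and Rnf43 at 48 h in 5 each, and Lect2 at 36 h in 4, with adjusted p from 0.0131 to 0.242, 0.0225 to 0.333, 0.0182 to 0.271 and 0.0252 to 0.314. Members called at 36 h against 0 h were 2, and 0 with normexp or with no filter on dim genes. At 48 h they were 2, and 0 with normexp, 1 with no filter, 4 with genes above background on all arrays or with an intensity trend, and 5 with every probe fitted. At 24 h they were 0, and 1, 1 and 2 under the last 3 settings. Leaving out 1 array gave 0 at 36 h and 0 to 1 at 48 h, where fewer arrays also leave fewer degrees of freedom. Members 2-fold or more apart within a pair were 1 at 24 h and 0 at 36 h, and with normexp 0 and 2. The share of all genes was not computed with normexp.

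Changes from 0 h that turned direction with normexp were those of Axin2 at 24, 36 and 48 h (-0.12, -0.52 and -0.65), Rnf43 at 24 h (0.0039) and Tbx3 at 36 h (0.19), none of them called. Relative to the main values, normexp lowered bright probes by a median of 0.20 to 0.93 log2 units, unevenly between arrays, and it moved the median change of all genes to -0.10, -0.13 and -0.13 at 24, 36 and 48 h. Genes called at these times were 1370, 2329 and 2507, and 25, 23 and 79 with normexp, of which 72%, 87.0% and 87.3% were higher, against 45.7%, 47.5% and 45.8%. With no filter on dim genes 580, 990 and 1573 were called, and with an intensity trend 2145 at 24 h. Leaving out 1 array gave 0 to 519, 0 to 931 and 84 to 1512. The cause of these shifts was not tested.

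No genotype difference was called under any setting run, and several turned direction. Without both 0 h arrays Tbx3 was at 0.073, without both 36 h arrays Znrf3 at -0.031, and without both 48 h arrays Glul at 0.084, Axin2 at -0.012, Znrf3 at -0.065 and Slc1a2 at 0.011. On slide 1 alone Glul was at 0.083, Znrf3 at -0.26, Rhbg at 0.26 and Slc1a2 at 0.25, and on slide 2 alone Tbx3 at 0.17 and Rnf43 at 0.086. Leaving out 1 array at a time, the genotype difference ranged from -0.58 to 0.084 for Glul, -0.012 to 0.22 for Axin2, -0.28 to 0.073 for Tbx3, -0.065 to 0.22 for Znrf3 and -0.54 to 0.011 for Slc1a2. With time in the fit, leaving out 1 array gives the same genotype difference as leaving out its pair. These ranges are therefore no separate check from the pairs left out above. Changes from 0 h likewise ranged at 24 h from -0.79 to 0.23 for Lgr5, -0.38 to 0.45 for Tbx3 and -0.33 to 0.012 for Rnf43, and at 36 h from -0.52 to 0.31 for Tbx3 and -0.56 to 0.083 for Znrf3.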
